A study of Mus musculus with 2 samples.

Results

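PK44 cells of the mouse yolk sac with many transcripts of the proliferation genes *Mki67* and *Top2a* were compared with the PK44 cells of the same libraries that had few. Cells were chosen by their summed CPM of these 2 genes, where CPM is the count of a gene per 1000000 counts of the cell. Cells at 100 CPM or more are called high and cells under 100 CPM low, after cells with 100 or more counts of *Col1a1*, a collagen gene of mesenchymal cells, had been left out. Of 87 cells, 3 were left out in this way, 61 of the other 84 were high and 23 were low. *Mki67* and *Top2a* defined the groups, so their values are given as a description and were not tested. *Col1a1* decided which cells were kept, so its level is limited by the rule too. Genes outside these rules could be compared.

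The series holds single-cell transcriptomes of hemogenic endothelial cells, the endothelial cells from which blood stem and progenitor cells arise. They were sorted from the yolk sacs of embryos of mice on the C57BL/6 background at embryonic day E10.0 as CD41-CD43-CD45-CD31+CD201+Kit+CD44+ cells, which the study calls PK44. All cells were of this 1 condition, and their transcripts were tagged by modified STRT-seq with a cell barcode and a unique molecular identifier (UMI), so that a count is a transcript. Library 1 held 43 cells and library 2 held 44 cells, and nothing in the descriptions says that the libraries came from separate embryos or litters.

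*Mki67* encodes Ki-67, a protein that coats mitotic chromosomes and is made in cycling cells, and *Top2a* encodes the topoisomerase that untangles sister DNA molecules. Both transcripts build up from S phase to mitosis. Transcripts of DNA replication, which E2F factors control, peak earlier, around the entry to S phase, and those of mitosis, which the DREAM and MuvB complexes and FoxM1 control, peak later. The yolk sac vessel wall at this age is a growing endothelium, and cells that leave it for the blood lineage lose endothelial transcripts while they gain those of *Runx1*, *Gfi1* and *Spi1*.

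The high group held 30 of 41 cells of library 1, or 73.2% (95% exact Clopper-Pearson interval 57.1% to 85.8%), and 31 of 43 cells of library 2, or 72.1% (56.3% to 84.7%). These intervals cover counting error only. The summed CPM of *Mki67* and *Top2a* ran from 123 over a median of 1544 to 4085 in the high cells of library 1, and from 141 over 1046 to 4497 in those of library 2. In the low cells it ran from 0 over 38.0 to 95.3 in library 1 and from 7.01 over 29.0 to 74.6 in library 2. The cells nearest the threshold were at 123 and 144 CPM above it and at 95.3 and 87.9 CPM below it in library 1. In library 2 they were at 141 and 161 CPM above and at 74.6 and 38.6 CPM below, so few cells lay near 100 CPM.

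Low cells were rarely without any of these transcripts, since 16 of 23 had a count of *Mki67* and 19 a count of *Top2a*, and only 1 had neither. Of the 61 high cells 57 had counts of both genes, 3 had none of *Mki67* and 1 had none of *Top2a*. In the summed counts *Mki67* stood at 631 CPM in high and 23.8 CPM in low cells of library 1, and at 432 and 9.85 CPM in library 2. *Top2a* stood at 931 and 21.1 CPM in library 1 and at 776 and 16.7 CPM in library 2. The 3 cells left out by *Col1a1* had 453, 410.1 and 1914 CPM of the 2 genes together, so all of them would have been high.

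**Figure D1:**
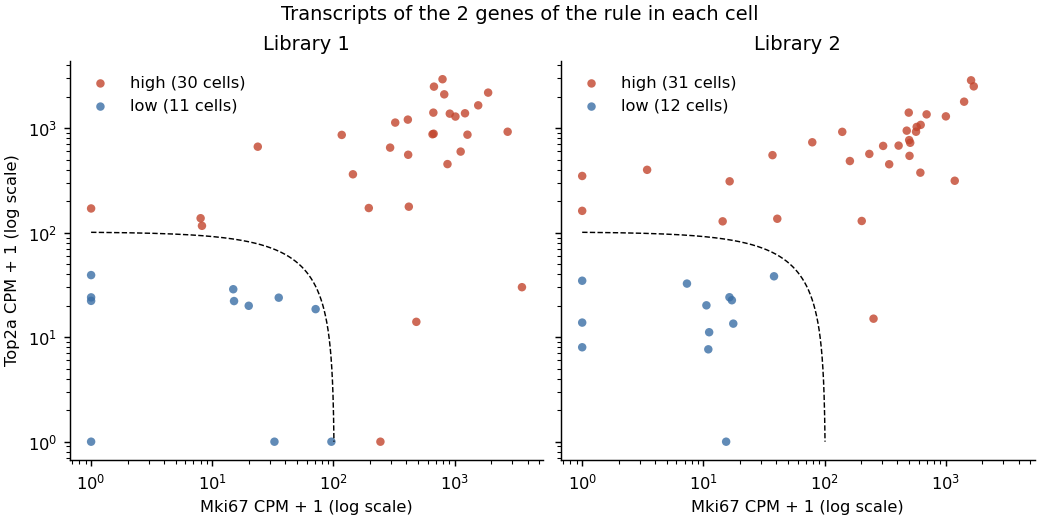
CPM of *Mki67* (x axis) and *Top2a* (y axis) in each of the 84 cells, both plus 1 and on log scales, with high cells in red, low cells in blue and the dashed line at a sum of 100 CPM. Of the 61 high cells, 57 lie off both axes, with counts of both genes.

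High cells carried more counts than low cells, most of all in library 1. Their median total was 252882 counts against 71938 in low cells of library 1, and 258757 against 190972 in library 2. The median number of genes with a count was 5007 against 2822 and 6197 against 5274. Summed over cells, high and low cells held 7774670 and 756686 counts in library 1 and 10177433 and 2335117 in library 2. A count of 0 in such a sum allows up to 3 counts, which on the TMM scale of the gene values below is 0.379 and 4.37 CPM in high and low cells of library 1 and 0.279 and 1.28 CPM in those of library 2. The low sum of library 1 was therefore the least precise of the 4.

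Counts were summed per library and group, and the 4 sums were compared with edgeR's quasi-likelihood test with the library as a block, since both groups came from each library. Of 10435 genes tested, 12 rose in high cells (0.115% of the genes tested) and 9 fell (0.0862%) at a Benjamini-Hochberg adjusted p under 0.05, and all 21 lay on the same side in both libraries. The test on these sums chose the 21 genes, so their lying on the same side is no separate result. Of the 12 genes that rose 10 are members of the lists of replication, chromatin, histones or mitosis described below, among them *Cdca8*, *Birc5*, *Casc5*, *Cenpf*, *Prc1* and *Nusap1*. These lists were chosen with earlier results of these data known. The largest of them held 50 of the 10435 genes tested, and their joint share of those genes was not computed. The genes that fell included the yolk sac endothelial genes *Lyve1*, *Stab2* and *Mrc1*. At an unadjusted p under 0.05 there were 384 genes, 203 higher and 181 lower. With the block, these p-values set the difference between high and low cells against how far that difference varied between the 2 libraries. That spread was estimated in part over all genes, and it may be technical.

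The calls depended on the model. Without the library block edgeR called 0 genes higher and 0 lower, with 497 genes at an unadjusted p under 0.05, and DESeq2 with the block called 33 higher and 54 lower, among them 11 of the 12 and 7 of the 9. With each cell thinned to 20000 counts, so that cells were of equal depth but sums still of unequal numbers of cells, 21 genes were called higher and 14 lower among 6635 tested, including 11 and 7 of those above. Scaling by DESeq2's size factors instead of TMM gave 7 higher and 9 lower, or 43.8% of calls higher against 57.1%. The median log2 fold change of all genes tested was 0.40 with TMM scaling, 0.24 with the other scaling and 0.09 without the block, so medians of gene lists are given below relative to that of all genes. Genes of 100 CPM or more had a median of -0.11. Against that reference, added after the data had been seen, every list median is higher, and those of the sort, ribosomal protein, glycolysis, oxidative phosphorylation and proteasome lists turn from negative to positive.

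**Figure D2:**
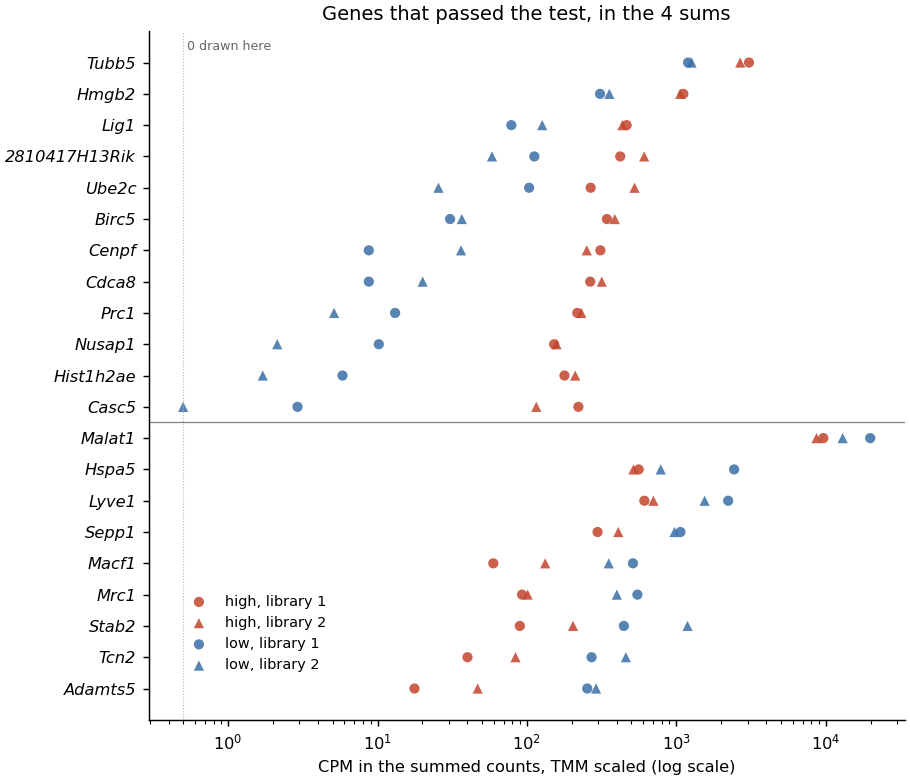
TMM-scaled CPM (x axis, log scale) of the 12 genes that rose (above the line) and the 9 that fell (below it) in the summed counts of high cells (red) and low cells (blue) of library 1 (circles) and library 2 (triangles). For every gene both red points lie on the same side of both blue points, and *Casc5* is drawn at the dotted line where it had 0 counts.

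A second description used size alone, a rule added after the values had been seen. After 5 CPM had been added to each value, 941 genes (9.02%) were at least 2-fold higher in high cells of both libraries and 334 (3.2%) at least 2-fold lower. With 1 CPM added the numbers were 1435 and 432. Among the 2106 genes with a mean of 100 CPM or more, where low counts matter less, 47 (2.23%) were at least 2-fold higher and 56 (2.66%) at least 2-fold lower in both libraries. Abundant genes thus differed about as often in either direction, and most of the excess of higher genes lay among genes with few counts. Counts of list members higher or lower in both libraries, at any size, are given below without a share over all genes beside them. The median log2 ratio of all genes was itself above 0, at 0.48 in library 1 and 0.04 in library 2, so such counts alone do not set a list apart.

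Genes of the centromere and kinetochore, the structures by which chromosomes hold on to the spindle, stood out among the lists. Of 37 genes 36 were tested, 4 rose, 0 fell, 32 were higher in both libraries, and 25 were at least 2-fold higher in both. DESeq2 called 6 higher, and limma 4, of which edgeR did not call *Cenpe*, a kinetochore motor. Their median log2 fold change lay 2.92 above that of all genes, and 1.69 and 2.43 above it within libraries 1 and 2. *Cdca8* (borealin, chr4:124918465-124936917 of GRCm38.p6) and *Birc5* (survivin, chr11:117849237-117855743) are subunits of the chromosomal passenger complex, which corrects faulty attachments and guides cytokinesis. *Cdca8* had 265 and 8.74 CPM in high and low cells of library 1 and 317 and 20.0 CPM in those of library 2, ratios of 30.4 and 15.8. Its low sums rested on 6 and 47 counts, and its log2 fold change was 4.40 ± 0.82 (SE, edgeR quasi-likelihood test, Benjamini-Hochberg adjusted p = 0.000319, higher in both libraries). Each SE of an edgeR log2 fold change, here and below, was worked back from the unadjusted p-value and is no separate measure of precision. Both high values lay above both low values, which the test that chose the gene favours.

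*Birc5* had 343 and 30.6 CPM in high and low cells of library 1 and 388 and 36.7 CPM in library 2, so it was near 11-fold higher in each (ratios of 11.2 and 10.6). Its log2 fold change was 3.44 ± 0.68 (edgeR adjusted p = 0.00083). Of the other subunits, chosen after their values were seen, neither passed the test, with *Aurkb*, the kinase of the complex, at 149.6 and 23.3 CPM in library 1 and 97.7 and 4.26 CPM in library 2 (edgeR adjusted p = 0.665). *Incenp*, its scaffold, stood at 83.2 and 97.6 CPM in library 1 and at 113 and 6.40 CPM in library 2. Of the *Incenp* counts in low cells of library 1, 94.0% came from 1 cell.

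*Casc5* (*Knl1* in RefSeq, chr2:119047119-119110497) encodes the outer kinetochore scaffold to which the checkpoint kinases bind. It had 1751 counts in high and 2 in low cells of library 1 (221 and 2.91 CPM), and 1244 and 0 counts in library 2 (116 and 0 CPM). The ratio in library 1 was 75.9, with a counting interval of 21.0 to 627, and *Casc5* was 90.3-fold higher in library 2 when its low sum of 0 was set to 3 counts, with a lower counting limit of 73.4-fold. *Casc5* passed the test (edgeR adjusted p = 0.000395, higher in both libraries), but no low cell of library 2 had a count of it, so its fitted log2 fold change of 7.67 is no bound. *Cenpf*, a protein of the kinetochore corona, had 311 and 8.74 CPM in high and low cells of library 1 and 252 and 36.3 CPM in those of library 2 (log2 fold change 3.84 ± 0.82, edgeR adjusted p = 0.00277). Of the *Cenpf* counts in low cells of library 2, 94.1% came from 1 cell, and 5 of 11 and 5 of 12 low cells had a count of it.

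Genes of the spindle and of cytokinesis behaved alike. Of 33 genes 32 were tested, 2 rose, 0 fell, 31 were higher in both libraries and 22 at least 2-fold higher in both, and their median lay 3.66 above that of all genes. With genes at 0 counts set to their bound, the median log2 fold change of this list was 3.94 in place of 4.06. DESeq2 called 11 of the list higher, and limma 2, *Prc1* and *Tpx2*. *Prc1* (chr7:80294445-80316259), which bundles the microtubules of the central spindle, had 217 and 13.1 CPM in high and low cells of library 1 and 231 and 5.12 CPM in those of library 2. Its log2 fold change was 4.79 ± 0.98 (edgeR adjusted p = 0.00147), and its low sums held 9 and 12 counts. *Nusap1*, a microtubule binder near chromosomes, had 152 and 158 CPM in the high cells and 10.2 and 2.13 CPM in the low cells of libraries 1 and 2 (log2 fold change 5.03 ± 1.27, edgeR adjusted p = 0.044). Its call was kept in only 2 of 13 alternatives.

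The most abundant gene of the spindle list, *Stmn1*, whose product takes up free tubulin, differed less, with 249.5 and 121 CPM in high and low cells of library 1 and 350.2 and 262 CPM in those of library 2. *Tpx2*, which activates Aurora A on the spindle, had 233 and 192 CPM in high and low cells of library 1 and 265 and 8.53 CPM in those of library 2, and 93.2% of its counts in low cells of library 1 came from 1 cell. *Tubb5*, a beta-tubulin outside the lists, rose by a smaller factor at a far higher level, with 3069 and 1199 CPM in library 1 and 2679 and 1265 CPM in library 2 (log2 fold change 1.22 ± 0.26, edgeR adjusted p = 0.00277). Its ratios of 2.56 and 2.12 were alike in the libraries, and its call was kept in 9 of 13 alternatives. Those of *Cdca8*, *Casc5*, *Prc1*, *Birc5* and *Cenpf* were kept in 11, 10, 10, 9 and 9.

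Cyclins, kinases and transcription factors of mitosis gave no call in edgeR, although 12 of the 27 were higher at an unadjusted p under 0.05 and 16 were at least 2-fold higher in both libraries. DESeq2 called 3 of them higher (*Aurka*, *Bub1* and *Plk1*), and limma on mean CPM called 2 (*Cdk1* and *Cks1b*). Their median lay 2.25 above that of all genes. *Cdk1*, the kinase of mitotic entry and the most abundant of them, had 345 and 217 CPM in high and low cells of library 1 and 442 and 80.6 CPM in those of library 2, so its ratio was 1.59 in one library and 5.48 in the other. *Aurka*, a kinase of the spindle poles, had 108 and 128 CPM in the high cells of libraries 1 and 2 and 1 and 3 counts in the low cells, just short of the threshold (edgeR adjusted p = 0.0509). *Cks1b*, a small Cdk subunit, had 302 and 39.3 CPM in high and low cells of library 1 and 457 and 144 CPM in those of library 2 (edgeR adjusted p = 0.0748).

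Cyclin B1 (*Ccnb1*), chosen after its values were seen, showed how much a low sum can rest on 1 cell. It had 148 and 169 CPM in high and low cells of library 1, and 291 and 16.2 CPM in library 2. In the low cells of library 1, 92.2% of its counts came from 1 cell, and the median over cells was 52.6 CPM in high and 13.9 CPM in low cells. Of genes of the anaphase-promoting complex, the ubiquitin ligase that ends mitosis, and its substrates, 1 of 18 rose and 0 fell. This gene was *Ube2c*, the ubiquitin-conjugating enzyme of the complex, with 267 and 103 CPM in high and low cells of library 1 and 525 and 25.6 CPM in those of library 2 (log2 fold change 2.86 ± 0.67, edgeR adjusted p = 0.0156). The *Ube2c* counts of low cells of library 1 came to 80.3% from 1 cell. Its cell median was 19.8 CPM in high and 19.0 CPM in low cells of library 1, and 323 and 27.1 CPM in library 2. DESeq2 also called *Cdc20*, an activator of the complex. The core subunit *Anapc5* had 323 and 299 CPM in high and low cells of library 1 and 374 and 217 CPM in those of library 2. The list's median lay only 0.16 above that of all genes, or 0.10 and 0.69 above it within libraries 1 and 2. It lay below with no filter on low counts and without the cells of under 50000 counts.

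The promoters of the genes called higher with the smallest p of the mitotic and replication lists are shown, with 150 bases before and 30 after the start, 5′ to 3′ on the strand of the gene. Being called higher was the rule that picked these genes, and whether they vary together over cells was not tested. They come from RefSeq on GRCm38.p6, at chr4:124936888-124937067 (minus strand), chr2:119046969-119047148, chr11:117849087-117849266, chr7:80294301-80294480 and chr7:13278676-13278855 (plus strand). Capitals mark TTTGAA or TTCGAA (the cell cycle genes homology region, CHR), CCAAT (the NF-Y box) and TTTCCCGC, TTTCGCGC, TTTGCCGC or TTTGGCGC (E2F), searched on both strands of 250 bases before to 50 after the start. *Prc1* has 2 and *Lig1* has 3 starts in the table, and the start with most matches is shown.
Cdca8: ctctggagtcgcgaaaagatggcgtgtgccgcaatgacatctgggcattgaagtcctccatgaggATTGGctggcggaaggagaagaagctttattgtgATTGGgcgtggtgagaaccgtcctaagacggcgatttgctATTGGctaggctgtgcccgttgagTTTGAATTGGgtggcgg
Casc5: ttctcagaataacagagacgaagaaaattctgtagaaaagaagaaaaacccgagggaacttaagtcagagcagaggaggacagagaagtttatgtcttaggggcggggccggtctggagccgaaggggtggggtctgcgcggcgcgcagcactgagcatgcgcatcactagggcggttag
Birc5: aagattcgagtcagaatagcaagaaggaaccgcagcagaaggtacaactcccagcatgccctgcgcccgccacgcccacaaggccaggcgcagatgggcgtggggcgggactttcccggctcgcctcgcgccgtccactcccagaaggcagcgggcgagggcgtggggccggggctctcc
Prc1: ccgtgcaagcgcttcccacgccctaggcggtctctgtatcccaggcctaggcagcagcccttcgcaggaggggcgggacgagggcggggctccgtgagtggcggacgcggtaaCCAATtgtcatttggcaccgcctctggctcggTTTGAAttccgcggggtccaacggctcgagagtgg
Lig1: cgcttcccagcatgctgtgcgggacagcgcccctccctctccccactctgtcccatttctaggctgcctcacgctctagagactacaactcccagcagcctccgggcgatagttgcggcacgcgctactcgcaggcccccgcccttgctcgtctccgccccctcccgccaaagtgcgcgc
Counted from 1 at the start site, *Cdca8* held CCAAT on the minus strand at -85, -51, -11 and 19 and TTTGAA at 14, the last pair sharing the base at 19. *Prc1* held CCAAT at -37 and TTTGAA at -5. *Casc5* held TTTGAA at 32, beyond the bases shown, and *Lig1* held TTTCGCGC on the minus strand at 27, running past the last base shown. *Birc5* held none of these letters in the window searched.

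A CHR sequence was found in 7 (58.3%), a CCAAT box in 8 (66.7%) and an E2F sequence in 2 (16.7%) of the 12 genes that rose, all of which matched a promoter. Of 32851 promoters of the same length in the table, 19.2% held a CHR sequence, 37.4% a CCAAT box and 2.26% an E2F sequence. Among tested genes 8422 of 10435 matched, and 16.3%, 43.1% and 5.21% held each in at least 1 promoter. CHR sequences were found in 76.7% of the 30 matched spindle genes and 50% of the 32 matched kinetochore genes, but in 22.5% of the 40 matched replication genes. E2F sequences were found in 10%, 12.5% and 40% of the same lists. The other lists of the cell cycle showed no single order of these motifs. Mitotic cyclins, kinases and factors held a CHR sequence in 63.2% and an E2F sequence in 5.26%, but condensin and cohesin genes in 57.1% and 42.9%, chromatin assembly genes in 41.2% and 29.4%, recombination genes in 13.3% and 33.3%, and nucleotide synthesis genes in 14.3% and 0%. Of the 9 genes that fell only 6 matched, too few, so a comparison with them is void (3 of the 6 held a CHR sequence). A match is a run of letters and not a binding site.

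Genes of DNA replication had a higher median log2 fold change than all genes. All 50 were tested, 1 rose and 0 fell, 34 were higher and 3 lower in both libraries, and 16 were at least 2-fold higher in both. Their median lay 0.99 above that of all genes (1.17 and 1.33 within libraries 1 and 2). *Lig1*, the ligase that joins Okazaki fragments, had 465 and 78.7 CPM in high and low cells of library 1 and 437 and 127 CPM in those of library 2 (log2 fold change 2.17 ± 0.55, edgeR adjusted p = 0.0452). Its call was kept in 4 of 13 alternatives, and 81.5% of its counts in low cells of library 1 came from 1 cell. The helicase subunits did not pass the test and did not move alike. *Mcm6* had 433 and 289 CPM in high and low cells of library 1 and 345 and 122 CPM in those of library 2, whereas *Mcm2* had 114 and 245 CPM in high and low cells of library 1 and 129 and 111 CPM in those of library 2. The sliding clamp *Pcna* had 272 and 173 CPM in high and low cells of library 1 and 230.0 and 95.96 CPM in those of library 2. *Gmnn* (geminin), the inhibitor of licensing that is made from S phase on, had 225 and 11.7 CPM in high and low cells of library 1 and 161 and 32.8 CPM in those of library 2 (edgeR adjusted p = 0.205). DESeq2 and limma called *Gmnn* and *Lig1* higher, and DESeq2 also *Clspn*, a checkpoint mediator.

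Of 15 genes of nucleotide synthesis 0 were called by edgeR, 7 were higher at an unadjusted p under 0.05 and 8 were at least 2-fold higher in both libraries. DESeq2 called *Tk1*, the salvage thymidine kinase, and limma called the ribonucleotide reductase subunits *Rrm1* and *Rrm2*. *Tk1* had 157 and 13.1 CPM in high and low cells of library 1 and 169 and 17.1 CPM in those of library 2 and *Rrm2* had 158 and 32.1 CPM in library 1 and 247 and 53.7 CPM in library 2. *Impdh2*, of guanine nucleotide synthesis and the most abundant of the list, had 305 and 391 CPM in high and low cells of library 1 and 322 and 194 CPM in those of library 2 and so differed in direction. *2810417H13Rik* (*Pclaf* in RefSeq), whose product binds the sliding clamp, lay outside the lists and rose, with 422 and 112 CPM in high and low cells of library 1 and 609.8 and 58.4 CPM in those of library 2 (log2 fold change 2.65 ± 0.55, edgeR adjusted p = 0.00199).

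Of 19 genes of chromatin assembly, 1 rose, 0 fell and 17 were higher in both libraries. *Hmgb2*, a DNA-bending chromatin protein abundant in dividing cells, had 1116 and 309 CPM in library 1 and 1063 and 357 CPM in library 2 (log2 fold change 1.71 ± 0.38, edgeR adjusted p = 0.00504). Its relative *Hmgb1* had 1298 and 1215 CPM in high and low cells of library 1 and 912 and 634 CPM in those of library 2, and so differed less. *H2afz*, a histone variant, had 1031 and 599 CPM in high and low cells of library 1 and 866 and 358 CPM in those of library 2 (edgeR adjusted p = 0.665). DESeq2 called *Hmgb2* alone, and limma called *H2afz*, *H2afx* and *Hells* higher besides.

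Replication-dependent histone genes, whose transcripts mostly lack the polyA tail, were mostly too low to be tested. Of 68 genes 25 were tested and 16 had 0 counts. *Hist1h2ae*, a histone H2A gene, rose, with 178 and 5.83 CPM in high and low cells of library 1 and 210.5 and 1.71 CPM in those of library 2 (log2 fold change 5.95 ± 1.18, edgeR adjusted p = 0.00083). It belongs to a family of near-identical copies, so its counts are uncertain. Its counts were uneven over cells. They were found in 18 of 30 and 20 of 31 high cells, with medians of only 5.03 and 3.86 CPM over the high cells. *Hist1h2bc*, the most abundant histone gene, had 149 and 4.37 CPM in high and low cells of library 1 and 75.3 and 194 CPM in those of library 2, opposite directions in the libraries. Of the 25 tested 5 had 0 counts in the low cells of both libraries, so their fitted fold changes are no measure of size. Without these 5, an alternative added after the data had been seen, the median of the list lay 2.07 above that of all genes, in place of 3.57. Within libraries 1 and 2 it then lay 0.67 and 0.93 above, little moved from 0.81 and 1.00 with all 25.

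Genes of repair and cohesion gave no call in edgeR. Of 20 genes of homologous recombination and the replication checkpoint edgeR, DESeq2 and limma called 0, with 0 at an unadjusted p under 0.05 in edgeR, and their median lay 1.60 above that of all genes (0.82 and 1.44 within libraries 1 and 2), with 14 higher and 1 lower in both libraries. Of 19 condensin and cohesin genes, which fold chromosomes and hold sister strands together, edgeR called 0, with 6 higher at an unadjusted p under 0.05, DESeq2 called *Esco2* and limma *Smc4*. Their median lay 0.94 above that of all genes, 0.23 within library 1 and 1.35 within library 2, and 11 were higher and 0 lower in both.

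Genes that set the passage from G1 to S phase were less uniform. Of 22 cyclins, Cdks, E2F and Rb family genes 21 were tested and 0 were called by edgeR, DESeq2 or limma, with 0 higher and 1 lower at an unadjusted p under 0.05 in edgeR. *Cdk4*, the most abundant, had 432 and 258 CPM in high and low cells of library 1 and 487 and 372 CPM in those of library 2. Of the list 11 genes were higher and 4 lower in both libraries, 5 were at least 2-fold higher and 0 lower in both, and the median lay 0.64 above that of all genes. The 2 D cyclins with most counts lay lower in high cells of both libraries, whereas *Ccnd3*, the third D cyclin, lay higher in both. *Ccnd2* had 372 and 392 CPM in high and low cells of library 1 and 136 and 595 CPM in those of library 2 (edgeR unadjusted p = 0.0262), and *Ccnd1* had 86.3 and 144 CPM in high and low cells of library 1 and 118 and 402 CPM in those of library 2. Cyclin E1 (*Ccne1*), which works at the start of S phase, lay the other way, with 85.7 and 4.37 CPM in high and low cells of library 1 and 58.4 and 14.9 CPM in those of library 2.

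Of 24 Cdk inhibitors and antiproliferative genes 19 were tested, and edgeR, DESeq2 and limma called 0 of them, with 1 higher and 1 lower at an unadjusted p under 0.05 in edgeR. Their median lay -0.96 from that of all genes, below it in every alternative run (-0.45 against genes of 100 CPM or more). Within libraries 1 and 2 it lay -1.21 and -0.51 from that of all genes. *Cdkn1a* (p21) had 70.1 and 124 CPM in high and low cells of library 1 and 31.5 and 310.5 CPM in those of library 2 (edgeR adjusted p = 0.912). These low sums rest on few cells, since *Cdkn1a* was found in 5 of 11 and 4 of 12 low cells, with 74.1% and 56.3% of the counts from 1 cell, against 23 of 30 and 17 of 31 high cells. After thinning it was found in 16 of 60 high and 6 of 23 low cells. *Cdkn1c* (p57) differed in direction in the sums, with 164 and 235 CPM in high and low cells of library 1 and 212 and 106 CPM in those of library 2, but its cell medians were higher in high cells of both, at 154 and 19.0 CPM and at 162 and 103 CPM. *Btg2* and *Txnip*, which slow the cycle, were lower in high cells of library 2 only, at 356 and 690.0 CPM and at 203 and 512 CPM, against 349 and 248 CPM and 203 and 173 CPM in library 1. Of the list 10 genes were lower and 4 higher in both libraries. The gene at least 2-fold lower in both was *Tob1*, an antiproliferative gene, with 13.4 and 33.5 CPM in high and low cells of library 1 and 0.65 and 15.8 CPM in those of library 2, and 95.7% of its counts in low cells of library 1 came from 1 cell. The gene at least 2-fold higher in both was *Cdkn3*, a phosphatase of *Cdk1* known to peak in mitosis, with 65.0 and 5.83 CPM in high and low cells of library 1 and 84.7 and 8.96 CPM in those of library 2.

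**Figure D3:**
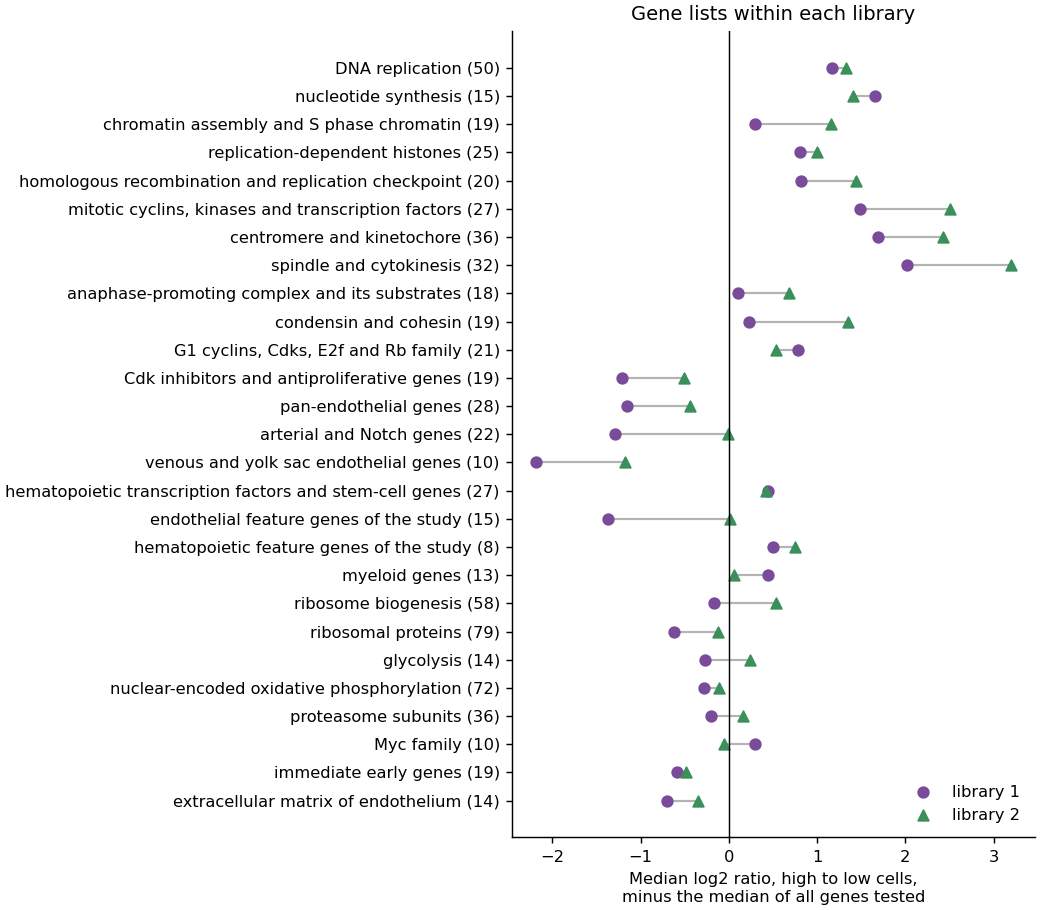
Median log2 ratio of high to low cells over the tested genes of each list (number in brackets), minus the median of all genes tested, within library 1 (circles) and library 2 (triangles). Spindle genes lie highest, 2.01 and 3.19 above all genes, and venous and yolk sac endothelial genes lowest, at -2.18 and -1.18.

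Mitotic and replication transcripts were also summed per cell. The 97 genes of the mitotic, kinetochore and spindle lists had a median of 7866 CPM in high and 1517 CPM in low cells of library 1, and 8884 and 1997 CPM in library 2. Of the high cells 17 of 30 and 29 of 31 lay above every low cell, and 0 low cells reached the median of the high cells. The 50 replication genes had medians of 5585 and 2016 CPM in library 1 and 5446 and 2127 CPM in library 2, and only 4 of 30 and 19 of 31 high cells lay above every low cell. Of the low cells, 1 in library 1 and 0 in library 2 reached the high median of replication transcripts, the highest at 8374 CPM. The rule genes themselves build up towards mitosis. Within high cells the mitotic sum followed their value (Spearman correlation 0.739 and 0.609 in libraries 1 and 2) and the replication sum hardly did (0.155 and 0.0270), so the gap in mitotic sums is not independent of the rule.

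In library 1 a single low cell held a large share of the mitotic transcripts of its group. It had 6866 CPM over the mitotic lists, where the next low cell had 3219 CPM, at only 35.3 CPM of *Mki67* and *Top2a* together. It gave 48.4% of the group's mitotic counts but 18.7% of all its counts, and over 50% of the counts of 17 of the 80 mitotic genes with a count in low cells. The low values of these 17 genes in library 1 thus rest mainly on that cell.

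High cells were not alike among themselves. In library 2 the 8 high cells with most mitotic transcripts had replication sums of 1379 to 5347 CPM, with a median of 3398 CPM, where the remaining 23 had a median of 5864 CPM. In library 1 the 8 such cells had a median of 4995 CPM, from 1395 to 7967 CPM, against 6125 CPM in the other 22. The 8 high cells with fewest mitotic transcripts had replication medians of 5877 CPM in library 1 and 4803 CPM in library 2, so these medians did not lie above those of the larger groups either. Over all high cells the sums were only weakly related, with Spearman correlations of -0.150 and -0.289, and these orders within a group were not tested.

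**Figure D4:**
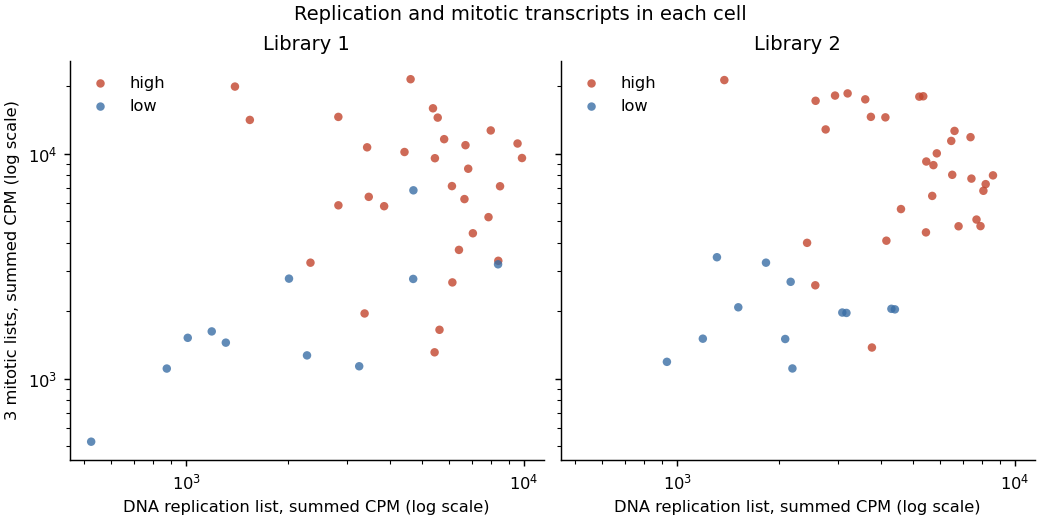
Summed CPM of the 50 DNA replication genes (x axis) and of the 97 genes of the 3 mitotic lists (y axis) in each high (red) and low (blue) cell, both on log scales. In library 2, 29 of 31 high cells lie above every low cell on the y axis, and 19 of 31 lie to the right of every low cell.

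Among genes that fell, the yolk sac and venous endothelial genes stood together. All 10 of the list were tested, 3 fell and 0 rose, 9 were lower in both libraries and 5 at least 2-fold lower in both. Their median lay -1.86 from that of all genes (-2.18 and -1.18 within libraries 1 and 2, and -1.34 against genes of 100 CPM or more), and it stayed below in every alternative run. *Lyve1* (chr7:110850607-110862953), a hyaluronan receptor of lymphatic and yolk sac endothelium, had 611 and 2225 CPM in high and low cells of library 1 and 703 and 1548 CPM in those of library 2, or 3.64 and 2.20 times as much in low cells. Its log2 fold change was -1.50 ± 0.31 (edgeR adjusted p = 0.00132). *Stab2* (chr10:86841194-87008038), a scavenger receptor that clears hyaluronan, had 89.7 and 446 CPM in high and low cells of library 1 and 204 and 1189 CPM in those of library 2, or 4.97 and 5.84 times as much in low cells (log2 fold change -2.43 ± 0.44, edgeR adjusted p = 0.000207). *Mrc1*, the mannose receptor, had 92.8 and 549 CPM in high and low cells of library 1 and 101.2 and 400.04 CPM in those of library 2 (log2 fold change -2.27 ± 0.54, edgeR adjusted p = 0.0202). For all 3 genes both low values lay above both high values, which the test that chose them favours.

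The calls of *Stab2*, *Lyve1* and *Mrc1* were kept in 11, 8 and 7 of 13 alternatives, and none of the 3 was called with *Mki67* alone as the rule. *Lyve1* differed more in level than in which cells had it. Of the high cells 60 of 61, and of the low cells 20 of 23, had *Lyve1* counts. With cells thinned to 20000 counts these were 44 of 60 and 16 of 23. *Lyve1* had a cell median of 97.1 CPM in high and 1454 CPM in low cells of library 1, and of 403 and 1561 CPM in library 2. *Stab2* had a cell median of 6.83 CPM in high and 7.06 CPM in low cells of library 1, where 48.7% of its low counts came from 1 cell, and of 48.1 and 568 CPM in library 2. Its difference in library 1 was thus carried by few cells. The groups overlapped for *Lyve1* too, since the highest high cells reached 3799 and 3803 CPM and only 6 of 11 and 7 of 12 low cells were at or above the high median.

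The other yolk sac and venous genes did not pass the test. *Stab1*, a relative of *Stab2*, had 122 and 517 CPM in high and low cells of library 1 and 242 and 465 CPM in those of library 2 (edgeR adjusted p = 0.451). The apelin receptor *Aplnr* had 43.8 and 168 CPM in high and low cells of library 1 and 51.8 and 139.9 CPM in those of library 2 and the venous receptor *Ephb4* had 23.2 and 70.0 CPM in library 1 and 42.6 and 100.6 CPM in library 2. Both were at least 2-fold lower in high cells of each library. The exception was *Nr2f2*, a factor of venous identity, with 128 and 0 counts in high and low cells of library 1 and 161 and 6 in library 2.

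Pan-endothelial genes lay lower in high cells without a single call in edgeR. Of the 28, all tested, 18 were lower and 3 higher in both libraries and 9 were lower and 0 higher at an unadjusted p under 0.05. DESeq2 called 0, and limma on mean CPM called *Cldn5* and *Clec14a* lower. Their median lay -0.94 from that of all genes (-1.15 and -0.44 within the libraries). It kept its sign in every alternative run, but lay only -0.43 from that of genes of 100 CPM or more. *Cldn5*, the tight junction claudin of vessels and the most abundant of the list, had 337 and 1153 CPM in high and low cells of library 1 and 828 and 1397 CPM in those of library 2 (log2 fold change -1.26 ± 0.34, edgeR adjusted p = 0.0924). *Plvap*, of the diaphragms of fenestrae, had 213 and 474 CPM in high and low cells of library 1 and 1083 and 1747 CPM in those of library 2. The VEGF receptor *Kdr* had 359 and 975 CPM in high and low cells of library 1 and 523 and 673 CPM in those of library 2, and VE-cadherin (*Cdh5*) had 466 and 595 CPM in high and low cells of library 1 and 554 and 869 CPM in those of library 2. The sums of all 4 were lower in high cells of both libraries, but not beyond the spread that the test allows. For *Kdr* in library 2 the cell medians were 549 CPM in high and 535 CPM in low cells.

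Not every pan-endothelial gene lay lower. *Cd34* had 306 and 236 CPM in high and low cells of library 1 and 309 and 359.5 CPM in those of library 2, and *Icam2* had 251 and 254 CPM in high and low cells of library 1 and 604 and 468 CPM in those of library 2. *Pecam1*, which encodes the CD31 of the sort, had 231 and 189 CPM in high and low cells of library 1 and 409 and 638 CPM in those of library 2, opposite directions in the libraries. Summed per cell, the 28 genes had medians of 4566 and 11720.5 CPM in high and low cells of library 1 and of 11600.3 and 15433 CPM in library 2. Of the low cells, 10 of 11 and 10 of 12 were at or above the median of the high cells. No high cell lay above every low cell, so every high cell was within the range of the low cells or under it.

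Arterial and Notch genes differed between the libraries. All 22 were tested and edgeR, DESeq2 and limma called 0, with 0 higher and 0 lower at an unadjusted p under 0.05 in edgeR. Their median lay -1.29 from that of all genes in library 1 and -0.01 in library 2. *Hes1*, a Notch target and the most abundant, had 1096 and 1816 CPM in high and low cells of library 1 and 1105 and 1252 CPM in those of library 2, and *Nrp1*, a VEGF co-receptor of arteries, had 432 and 781 CPM in high and low cells of library 1 and 595 and 738 CPM in those of library 2. The arterial connexin *Gja5* had 129 and 119.5 CPM in high and low cells of library 1 and 637 and 389 CPM in those of library 2, and its relative *Gja4* had 179 and 436 CPM in high and low cells of library 1 and 575 and 311 CPM in those of library 2. Of the list 9 genes were lower and 4 higher in both libraries, and the median over both lay -0.81 from that of all genes (-0.29 against genes of 100 CPM or more). The Notch target *Hey1* was the only member at least 2-fold higher in both, with 95.2 and 30.6 CPM in high and low cells of library 1 and 138 and 53.7 CPM in those of library 2. The only member at least 2-fold lower in both was *Sema3g*, an arterial semaphorin, found in 1 low cell of each library.

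**Figure D5:**
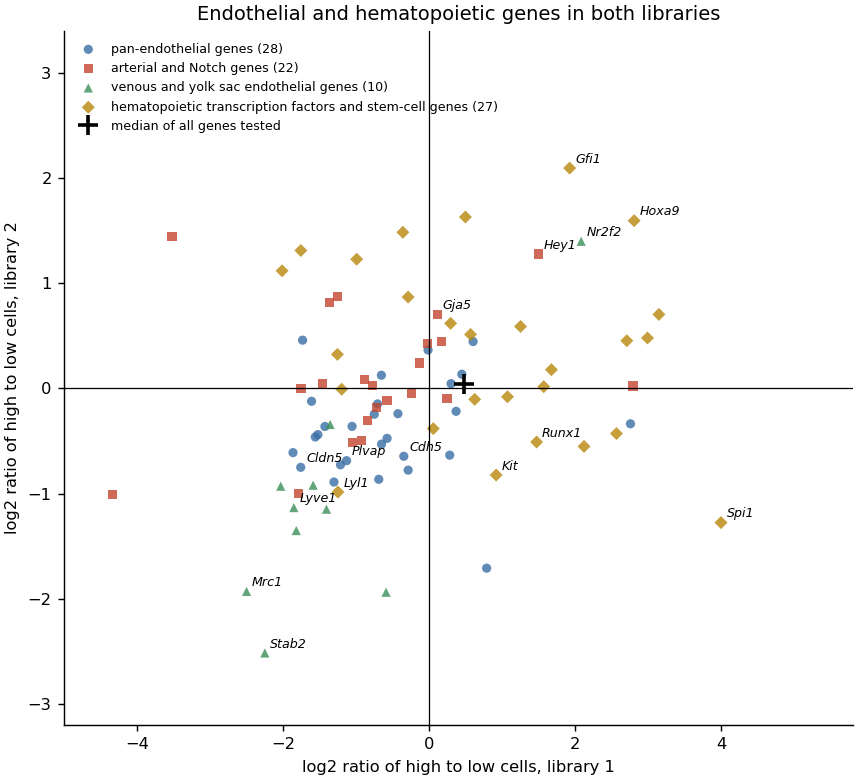
Log2 ratio of high to low cells (5 CPM added) in library 1 (x axis) and library 2 (y axis) for the tested genes of 3 endothelial lists and of the hematopoietic list, with the median of all genes as a black cross. Of the 10 venous and yolk sac genes 9 lie below 0 on both axes, as do 18 of the 28 pan-endothelial genes.

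Hematopoietic genes gave no call. Of 29 transcription factors and stem-cell genes 27 were tested, and edgeR, DESeq2 and limma called 0, with 1 higher and 0 lower at an unadjusted p under 0.05 in edgeR. Of them 11 were higher and 2 lower in both libraries, but the median log2 fold change of all genes was itself 0.40, so this count does not set the list apart. Their median lay 0.17 above that of all genes (0.44 and 0.42 within the libraries, and 0.69 against genes of 100 CPM or more), and below it with *Top2a* alone as the rule, with no filter on low counts and without cells of under 50000 counts. *Runx1*, the master factor of blood formation from endothelium, had 328 and 115 CPM in high and low cells of library 1 and 123 and 177 CPM in those of library 2 and so lay in opposite directions. In low cells of library 2, 86.2% of its counts came from 1 cell, and the cell median of *Runx1* was 213 and 34.4 CPM in high and low cells of library 1 and 19.6 and 5.57 CPM in library 2. *Spi1* (PU.1), a myeloid and lymphoid factor, likewise had 168 and 5.83 CPM in high and low cells of library 1 and 44.8 and 116 CPM in those of library 2.

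*Gfi1* and *Hoxa9* were the list's only members at least 2-fold higher in both libraries. *Gfi1*, a repressor of endothelial genes downstream of *Runx1*, had 242 and 3 counts in high and low cells of library 1 and 314 and 7 in library 2, or 30.6, 4.37, 29.2 and 2.99 CPM in that order, and it did not pass the test. A count of it was found in 37 of 61 high and 5 of 23 low cells, and after thinning in 12 of 60 and 1 of 23, near the level of 1 UMI. *Hoxa9*, a factor of stem and progenitor cells, had 803 and 7 counts in library 1 and 109 and 0 in library 2. *Lyl1*, the most abundant of the list, had 115 and 281 CPM in high and low cells of library 1 and 152 and 306 CPM in those of library 2, with 96.9% of the counts in low cells of library 1 from 1 cell. *Myb*, a factor of definitive blood formation, had 61.5 and 220.1 CPM in high and low cells of library 1 and 18.0 and 4.26 CPM in those of library 2, of which 96.03% in low cells of library 1 came from 1 cell. The cell medians of *Myb* were lower in high cells of both libraries, at 6.04 and 11.5 CPM and at 0 and 2.41 CPM.

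The feature genes that the study used to score its cells gave 0 calls in edgeR, DESeq2 and limma, with 0 at an unadjusted p under 0.05 in edgeR in either list. The 15 endothelial feature genes had a median -1.37 from that of all genes in library 1 and 0.01 in library 2. The 8 hematopoietic ones had 0.50 and 0.75, and 4 of them were higher and 0 lower in both libraries. With *Top2a* alone as the rule the median of these 8 lay below that of all genes. Both lists were taken over from the study and not chosen anew.

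Of the 6 tested genes of the sort edgeR, DESeq2 and limma called 0, with 0 at an unadjusted p under 0.05 in edgeR. *Procr*, which encodes CD201, had 212 and 541 CPM in high and low cells of library 1 and 148 and 212 CPM in those of library 2, *Cd44* had 303 and 233 CPM in high and low cells of library 1 and 213 and 159 CPM in those of library 2, and *Kit* had 225 and 117 CPM in high and low cells of library 1 and 72.8 and 133 CPM in those of library 2. Cell medians of *Kit* were higher in high cells of both libraries, at 135 and 22.9 CPM and at 9.17 and 4.95 CPM, and that of *Procr* was higher in high cells of library 2, at 136 and 89.9 CPM. Of the genes sorted against, *Itga2b* (CD41) had 61.1 and 136 CPM in high and low cells of library 1 and 36.2 and 21.8 CPM in those of library 2. *Spn* (CD43) had 152 and 50 counts in the high cells of libraries 1 and 2 and 0 in low cells, where 0 of 23 cells allow a share of cells with a count of up to 14.8% (exact interval). With a count in 9 of 61 high cells, *Spn* was found in few cells of either group. *Ptprc* (CD45) was found in 1 high and 2 low cells.

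The other genes that fell have no common list. *Malat1*, a long noncoding RNA of the nucleus, had 9652 and 19883 CPM in high and low cells of library 1 and 8686 and 12999 CPM in those of library 2 (log2 fold change -0.81 ± 0.14, edgeR adjusted p = 0.000207), the smallest p of all genes. This rested on the sums, since in library 2 its cell median was 10432 CPM in high and 9642 CPM in low cells. In library 1 these medians were 10508 and 16452 CPM. DESeq2 and limma on mean CPM did not call it. *Hspa5* (BiP), the chaperone of the endoplasmic reticulum, had 560.4 and 2439.6 CPM in high and low cells of library 1 and 517 and 787 CPM in those of library 2 (log2 fold change -1.36 ± 0.33, edgeR adjusted p = 0.0234), a 4.35-fold difference in library 1 and 1.52-fold in library 2. Its call was kept in 6 of 13 alternatives and lost with DESeq2.

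A further 4 genes fell. *Sepp1* (*Selenop* in RefSeq), the plasma carrier of selenium, had 297 and 1067 CPM in high and low cells of library 1 and 409 and 973 CPM in those of library 2 (edgeR adjusted p = 0.029). *Tcn2* (transcobalamin), the carrier of vitamin B12, had 40.0 and 271 CPM in high and low cells of library 1 and 83.9 and 460.2 CPM in those of library 2 (edgeR adjusted p = 0.0228), and *Adamts5*, a protease of the matrix, had 17.7 and 254 CPM in high and low cells of library 1 and 46.8 and 290.4 CPM in those of library 2 (edgeR adjusted p = 0.0202). All 3 were lower in high cells of both libraries, at log2 fold changes of -1.55, -2.61 and -3.23. *Adamts5* was found in 3 of 11 and 9 of 12 low cells, so few cells of library 1 carried it. Of the *Tcn2* counts in low cells of library 1, 61.3% came from 1 cell, and 6 of 11 low cells had a count of it. The calls of *Sepp1*, *Tcn2* and *Adamts5* were kept in 7, 6 and 7 of 13 alternatives. All 3 were lost without cells of under 50000 counts, among others, and that of *Tcn2* also with thinned cells. *Macf1*, which links actin and microtubules, had 59.6 and 513 CPM in high and low cells of library 1 and 133 and 353 CPM in those of library 2 (log2 fold change -2.26 ± 0.58, edgeR adjusted p = 0.0452), and its call was kept in 4 of 13 alternatives. Of the *Macf1* counts in low cells of library 1, 52.8% came from 1 cell.

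*Sparc*, a matrix protein of endothelium, did not pass the test in edgeR, with 1555 and 3123 CPM in high and low cells of library 1 and 1823 and 3051 CPM in those of library 2 (edgeR adjusted p = 0.124), and limma called it. The immediate early genes *Jun* and *Fos*, which respond to growth factors and to handling, also lay lower in high cells. *Jun* had 1484 and 2311 CPM in high and low cells of library 1 and 1232 and 1967 CPM in those of library 2, and *Fos* had 606 and 1303 CPM in high and low cells of library 1 and 430.2 and 819.7 CPM in those of library 2 (edgeR adjusted p = 0.949 and 0.585). Of the 19 genes of that list edgeR, DESeq2 and limma called 0, with 3 lower and 0 higher at an unadjusted p under 0.05 in edgeR. Of 14 tested matrix genes edgeR and DESeq2 called 0, with 1 lower at an unadjusted p under 0.05 in edgeR, and limma called 1, *Sparc*. Their median lay -0.73 from that of all genes, and that of the immediate early genes -0.69, or -0.22 and -0.17 from that of genes of 100 CPM or more.

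Lists of growth and metabolism held no gene called by edgeR. Of 79 tested ribosomal protein genes edgeR, DESeq2 and limma called 0, with 2 lower at an unadjusted p under 0.05 in edgeR, and their summed level was 158750.0 and 155967 CPM in high and low cells of library 1 and 131496 and 132443 CPM in library 2. Of 58 genes of ribosome biogenesis the same tools called 0, with 3 higher at an unadjusted p under 0.05 in edgeR, and their sums were 13101 and 12279.9 CPM in library 1 and 9353 and 5784 CPM in library 2. Their levels were therefore close in library 1 and further apart in library 2. Nucleolin (*Ncl*) had 2370.3 and 2278 CPM in high and low cells of library 1 and 1417 and 804 CPM in those of library 2. Glycolysis genes, of which 14 were tested and the same tools called 0 (0 at an unadjusted p under 0.05 in edgeR), summed to 5384 and 4755 CPM in library 1 and 5653 and 4826 CPM in library 2. *Myc*, a driver of growth, was at least 2-fold higher in both libraries with 89.5 and 14.6 CPM in high and low cells of library 1 and 58.4 and 22.2 CPM in those of library 2, but did not pass the test.

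Of 72 tested genes of oxidative phosphorylation edgeR and DESeq2 called 0, with 3 higher and 1 lower at an unadjusted p under 0.05 in edgeR, and limma called *Ndufb10*, a subunit of complex I, higher. Of 36 tested proteasome genes edgeR and DESeq2 called 0, with 3 higher at an unadjusted p under 0.05 in edgeR, and limma called the subunits *Psma2* and *Psmc4* higher. Medians lay -0.36 and -0.20 from that of all genes but 0.15 and 0.32 above that of genes of 100 CPM or more, so neither has a sign that held. The *Myc* family (10 tested), myeloid (13), erythroid and megakaryocyte (6), mesenchymal (6) and visceral endoderm (4) lists held 0 genes called by edgeR, DESeq2 or limma and 0 at an unadjusted p under 0.05 in edgeR. Their medians lay 0.76, 0.25, 0.69, -0.89 and -1.07 from that of all genes, and each of these 5 had the other sign in at least 1 alternative.

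Endothelial markers led in both groups, and markers of other cell types were lower. The 5 endothelial markers summed to 1635 and 2350 CPM in high and low cells of library 1 and to 2424 and 3149 CPM in library 2, with *Kdr* the most abundant. The 5 hematopoietic markers, led by *Runx1*, summed to 601 and 313 CPM and to 227 and 319 CPM. The 5 mesenchymal markers came to 52.7 and 52.9 CPM and to 22.8 and 33.0 CPM, led by *Col1a2*, with *Pdgfra* at 3 counts or fewer. These sums follow the *Col1a1* rule, which left out cells rich in that gene. Macrophage markers are given because macrophages also express *Mrc1*, *Lyve1* and *Stab1*. The 4 of the list came to 23.3 and 52.9 CPM in library 1 and to 0 and 7.28 CPM in library 2. *Cd68* was the most abundant, and *Cx3cr1* and *Adgre1* had 0 counts in all 4 sums. A count of any of the 4 was found in 12 of 30 high and 5 of 11 low cells of library 1. In library 2 such a count was found in 0 of 31 high and 2 of 12 low cells. Whether macrophages had a part in the lower genes was not tested.

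Visceral endoderm markers came to 0.129 and 0 CPM in library 1 and to 24.0 and 43.3 CPM in library 2, led by *Apoa2* and with *Rbp4* at 0. The embryonic globin *Hbb-y* had 3.28 and 2.91 CPM in high and low cells of library 1 and 11.2 and 0.853 CPM in those of library 2, from 26, 2, 121 and 2 counts in that order, found in 8 of 61 high and 4 of 23 low cells. Its part in the results was not tested. None of the markers tested in the sets given here was called in either direction by edgeR. The libraries shared 0 well numbers and 0 cell names. Depth differed between high and low cells. Thinning cells to 20000 counts, with more high than low cells still in the sums, kept 7 of the 9 calls of lower genes, and leaving out cells of under 50000 counts kept 4.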

How the data were processed

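Single PK44 cells were measured in 2 libraries, as counts deposited by the authors, whose processing notes name HISAT2 2.1.0 and HTSeq on mm10. By the methods of the study duplicates had been removed by UMI, so counts are transcripts per gene and cell. The tables hold 23154 genes and 0 mitochondrial genes. Libraries 1 and 2 held 8932527 and 12706360 counts, with 13218 to 702028 (median 141577) and 51620 to 956593 (median 238898) per cell. Cells with 100 or more *Col1a1* counts were left out, and kept cells had at most 31 and 14. The erythroid marker set is not reported here as a set, since an item of it is withheld. The cell barcode tables hold no measurement and were not used.

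Counts were summed per library and group, and 4 sums were tested with the quasi-likelihood test of edgeR 4.0.16 on R 4.3.3 (library as a block, TMM scaling, genes kept by filterByExpr, Benjamini-Hochberg adjustment over all genes tested, threshold 0.05), with *Mki67* and *Top2a* left out. Both groups come from each library, and over 10435 genes the deviations of the sums of library 1 from their group means correlated at 0.150. The Wilcoxon test of the study, made over cells, was not used, as cells are not replicates. Ratios within a library used TMM-scaled CPM with 5 CPM added where they were compared with 2-fold, a rule added, with its alternatives, after the data had been seen. Sums of 0 were set to a floor of 3 counts, and intervals are at 95%.

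List medians were also set against genes of 100 CPM or more, or taken without genes at 0 counts in a group, likewise added. Alternatives were no block, DESeq2 1.42.0, its size factors in edgeR, no filter on low counts, thresholds of 50 and 200 CPM, cells between these left out, either gene alone at 50 CPM, all cells kept, cells thinned to 20000 counts (which left out 1 cell) or cells of under 50000 counts left out, limma 3.58.1 on mean CPM, and either library left out. Members and the 31 gene lists were chosen with earlier results of these data known. Named genes were at most 12 genes of smallest p called each way, the 3 most abundant tested genes of each list, genes of the G1, Cdk inhibitor, feature and sort lists, and cell type markers. A further 28 genes were named after their values had been seen: *Aurka*, *Aurkb*, *Bub1*, *Ccnb1*, *Cd34*, *Cdc20*, *Cenpe*, *Clec14a*, *Clspn*, *Ephb4*, *Esco2*, *Gja5*, *Gmnn*, *H2afx*, *Hbb-y*, *Hells*, *Hoxa9*, *Icam2*, *Incenp*, *Mcm2*, *Ndufb10*, *Plk1*, *Psma2*, *Psmc4*, *Rrm1*, *Rrm2*, *Sema3g* and *Tk1*. Positions and promoters are from RefSeq on GRCm38.p6, where 8422 of the 10435 tested genes matched a promoter. Scripts used scipy 1.17.1, numpy 2.4.6, pandas 2.3.3 and matplotlib 3.10.9 on Python 3.11.15.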

Additional observations from a re-analysis of the deposited data

How the results depend on the processing

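The number of genes called higher, 12, became 33 with DESeq2, 7 with its size factors in edgeR, 7 without cells between 50 and 200 CPM, 6 without cells of under 50000 counts, 31 with limma, 0 with no replicate block, 21 with thinned cells, 27 at 200 CPM and 3 at 50 CPM. The number called lower, 9, became 54 with DESeq2, 0 with *Mki67* alone, 2 without cells between 50 and 200 CPM, 4 without cells of under 50000 counts, 14 with limma, 0 with no replicate block, 14 with thinned cells, 2 at 200 CPM and 2 at 50 CPM. The causes were not tested. The other settings with a test kept both numbers within 1.5 times. With either library left out no test was made.

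The hematopoietic transcription factor and stem-cell list had a median of 0.17 relative to all genes. It was -0.11 with *Top2a* alone, -0.0213 without cells of under 50000 counts and -0.0596 with no filter on low counts, all with the sign reversed. It was 0.32 with *Mki67* alone, 0.12 with all cells kept, 0.32 without cells between 50 and 200 CPM, 0.26 with limma, 0.50 with no replicate block, 0.64 with thinned cells, 0.27 at 200 CPM, 0.23 at 50 CPM, 0.69 against genes of 100 CPM or more, an alternative added after the data had been seen, and 0.42 to 0.44 with either library left out. The cause was not tested. The pan-endothelial median of -0.94 ran from -1.18 to -0.44 and kept its sign throughout, at -0.43 against genes of 100 CPM or more. The histone median of 3.57 relative to all genes was 2.07 without the 5 genes at 0 counts in low cells, also added after the data had been seen. None of the 21 called genes changed sign in any fit. Of the 167 other named genes 59 had the other sign in at least 1 fit, among them *Myb* and *Kit*, and 1 of these passed the test there: *Col1a2*, at a log2 fold change of 3.41 with all cells kept, where the cells rich in *Col1a1* had been put back, against -0.37.

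Low cells of library 1 held 756686 counts from 11 cells, where 3 counts, which a count of 0 allows, are 4.37 CPM on the TMM scale. With 2 libraries, a single low cell can set a ratio.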
